A study of Homo sapiens with 6 samples.

Results

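The cells described here were MDA-MB-231-Luc-D3H1 breast tumor cells that stably carried an empty GFP vector, the control line of a study in which the lncRNA LincIN was knocked down. The series held 6 Affymetrix Human Gene 2.0 ST arrays, 2 each of cells with shRNA1, cells with shRNA2 and cells with the empty vector. The 2 vector arrays were the members described, picked by their labels, with earlier results of these data known. Their total RNA came from 2 independent experiments of growing cultures. The question was which lineage, receptor, matrix, cytoskeletal and metabolic genes these cells had at a high or a low signal without a knockdown. The vector line carried GFP and, by its name, a luciferase reporter, and the sources used here do not say whether it was a clone or a pool. No cell was compared with a knockdown cell, so no difference between groups was tested and no p-value is given.

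MDA-MB-231 is a widely used model of triple-negative breast cancer, a class defined by the lack of estrogen receptor, progesterone receptor and ERBB2 amplification. Breast epithelium holds luminal cells, which line the ducts and carry keratins 8, 18 and 19 with hormone receptors, and basal or myoepithelial cells, which lie beneath them and carry keratins 5 and 14. In an epithelial-mesenchymal transition (EMT) such cells lose junction proteins and take up vimentin, matrix and motility genes, under transcription factors of the SNAI, ZEB and TWIST families. MDA-MB-231 is commonly placed in a mesenchymal, claudin-low class of lines.

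Signals are on the log2 scale, and wherever a pair of values is given, that of vector array 1 precedes that of vector array 2. A gene is ranked by its percentile within each array, among the 16098 probe sets that the annotation paired with exactly 1 gene symbol, which covered 14884 genes. Where a gene had several probe sets, the brightest stood for it. Ranks do not order genes by RNA amount, because probes differ in how well they bind. GAPDH, an abundant glycolytic enzyme, read only 8.18 and 8.15, and CFL1, the main actin-severing cofilin, read 6.87 and 6.99, at the 46.8 percentile. The files hold no detection call. As a guide to low signal, the 95th percentile of 52 markers of nerve, muscle, liver, gut and blood cells was taken in each array, which was 7.25 in array 1 and 7.46 in array 2. That other-lineage level lay at the 52.9 and 55.9 percentile of the named probe sets, and a gene beneath it, as the cofilin value shows, was not thereby silent.

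The vector arrays were close in most probe sets, although most translation genes were higher in array 2, as given below. Their Pearson r over named probe sets was 0.980, Spearman's rho was 0.981, and the difference of array 2 minus array 1 had an SD of 0.397 and a median of -0.01, so that 84.2% of the probe sets lay within 0.5. Differences over 1 were seen in 2.40% of them. Of all named genes 44.2% lay above the other-lineage level in both arrays and 23.4% ranked at the 75th percentile or higher in both, called top-ranked here, and of the 11916 protein-coding genes 51.7% and 28.2%. Protein-coding genes had a median rank at the 58.5 percentile, against the 26.3 percentile for lncRNA genes and the 16.6 percentile for miRNA genes. These protein-coding shares, 51.7% above the level and 28.2% top-ranked, are the background for the protein-coding lists below.

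Whether the cells looked basal, mesenchymal and triple-negative was checked first against lineage genes. Mesenchymal genes were the highest of the 5 lineage lists, with a median rank at the 90.7 percentile and 14 of 18 named members above the other-lineage level in both arrays. Epithelial junction and splicing genes had a median at the 54.4 percentile, EMT transcription factors at the 68.1 percentile, basal and myoepithelial genes at the 48.2 percentile and luminal genes at the 32.2 percentile. The shares above the level were 77.8% for mesenchymal genes, 61.9% for EMT transcription factors, 47.9% for epithelial genes, 35.0% for basal genes and 32.4% for luminal genes. Among protein-coding genes the share was 51.7%, so epithelial genes lay near the background and basal and luminal genes under it. Of the listed genes, 18 of 32 mesenchymal genes, 21 of 23 EMT factors and 48 of 59 epithelial genes were named. Likewise 20 of 44 basal and 34 of 45 luminal genes were, so the lists were read in part. CDH1 and CDH2, the cadherins whose switch marks EMT, lacked a named probe set and were not used here.

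**Figure D1:**
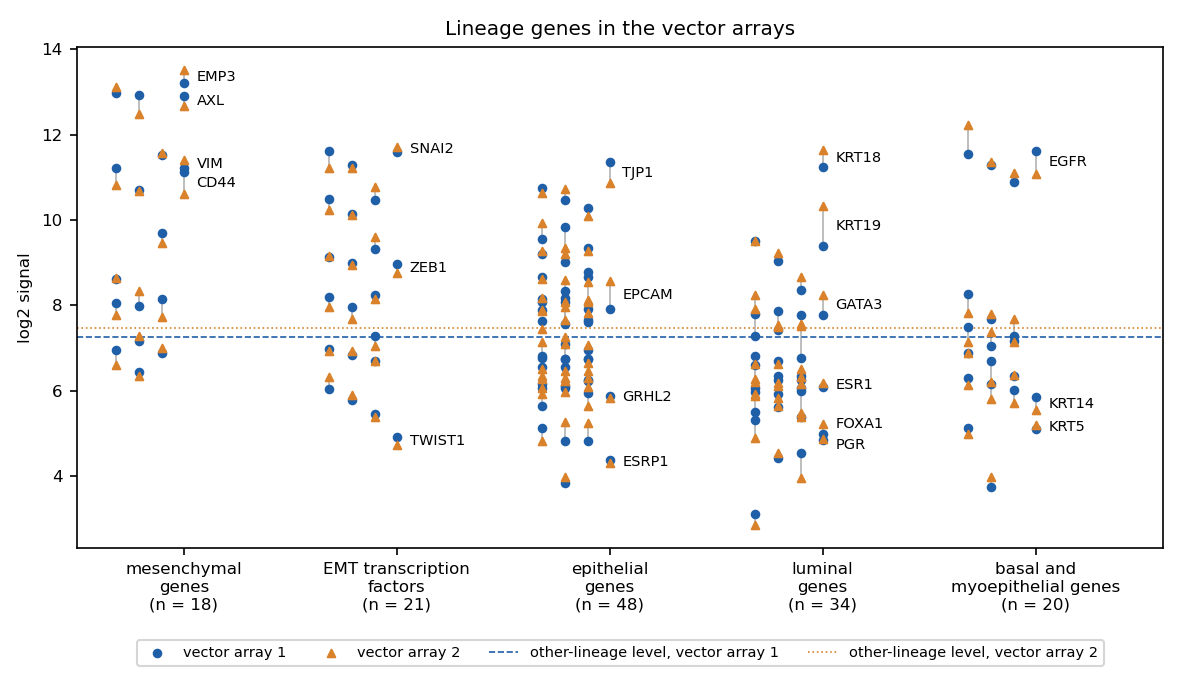
Log2 signal of each named member of 5 lineage lists in vector array 1 (circles) and vector array 2 (triangles), joined by a line for each gene. The dashed and dotted lines are the other-lineage levels of 7.25 and 7.46. Mesenchymal genes lie mostly above them, while ESR1, PGR, FOXA1, KRT5, KRT14 and ESRP1 lie below both.

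EMP3, a small membrane protein, was the brightest mesenchymal gene with 13.20 and 13.52. MSN, the moesin that ties actin to the membrane, followed at 12.98 and 13.12. AXL, a receptor tyrosine kinase common in mesenchymal tumor cells, read 12.91 and 12.66, and ANXA1, an annexin that binds membrane lipids, 12.94 and 12.48. These 4 genes were near the top of either array, with the lowest mean rank, that of ANXA1, at the 99.8 percentile. VIM, the vimentin filament protein, read 11.22 and 11.40, at the 97.6 percentile, although its probe sets differed by 1.56. FN1, the matrix protein fibronectin, read 11.22 and 10.82. CD44, the hyaluronan receptor, read 11.12 and 10.60 and, in the luminal list, the small surface protein CD24 read 6.0 and 6.31. CD44 was thus top-ranked and CD24 beneath the other-lineage level in both, though the probes of different genes cannot be set against each other as amounts. The collagen-crosslinking enzymes LOXL2, with 10.69 and 10.68, and LOX, with 9.70 and 9.47, were high as well.

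Not every mesenchymal gene was high, and 4 members lay under the other-lineage level in both arrays. TAGLN, the smooth muscle actin binder transgelin, read 7.17 and 7.28. THY1, a fibroblast surface protein, read 6.87 and 6.99. PDPN, the mucin-like podoplanin, read 6.95 and 6.61, and CD109, a TGF-beta co-receptor, 6.44 and 6.33, with probe sets 1.19 apart.

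Among EMT transcription factors, 13 of 21 were above the level in both arrays and 10 were top-ranked. These were 61.9% and 47.6%, against 51.7% and 28.2% of protein-coding genes. SNAI2, the SLUG repressor of epithelial genes, was the brightest at 11.59 and 11.71. TEAD1, the DNA-binding partner of YAP1 and WWTR1 in the Hippo pathway, read 11.62 and 11.22. FOSL1, the AP-1 subunit FRA1, read 11.30 and 11.21, and SOX9, a stem cell and cartilage factor, 10.47 and 10.78. YAP1 itself read 10.14 and 10.11, with probe sets 3.51 apart, and WWTR1, also known as TAZ, read 8.98 and 8.95. ZEB1, a repressor of CDH1 and of the miR-200 genes, read 8.98 and 8.76, while its relative ZEB2 read 7.27 and 7.04 and passed the level only in array 1.

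Several EMT factors were low. SNAI1, the relative of SNAI2, read 6.97 and 6.93. TWIST1 read 4.91 and 4.72, TWIST2 read 5.45 and 5.39, and TCF4, the E2-2 factor, read 5.79 and 5.89. SNAI2 and ZEB1 were therefore the members of the SNAI, ZEB and TWIST families that lay above the level in both arrays.

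The miR-200 family is known to repress ZEB1 and ZEB2 and to be repressed by them. Its 5 genes lie in a pair of clusters and make mature miRNAs of 2 seed classes. They are shown with the seed, bases 2 to 8, in capitals, as they are the post-transcriptional partners of the factors above, beside miR-221, miR-222 and miR-21, which are linked to EMT and invasion. Sequences and positions are those of RefSeq on GRCh38.p14. miR-200b-3p lies at chr1:1167160-1167181, miR-429 at chr1:1169055-1169076, miR-200c-3p at chr12:6963742-6963764, miR-200a-3p at chr1:1167916-1167937 and miR-141-3p at chr12:6964155-6964176, all on the plus strand. miR-221-3p lies at chrX:45746180-45746202 and miR-222-3p at chrX:45747036-45747056, both on the minus strand, and miR-21-5p at chr17:59841273-59841294 on the plus strand.
miR-200b-3p: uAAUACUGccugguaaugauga
miR-429: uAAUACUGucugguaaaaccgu
miR-200c-3p: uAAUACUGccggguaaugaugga
miR-200a-3p: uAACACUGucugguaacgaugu
miR-141-3p: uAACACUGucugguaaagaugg
miR-221-3p: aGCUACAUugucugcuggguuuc
miR-222-3p: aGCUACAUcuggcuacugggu
miR-21-5p: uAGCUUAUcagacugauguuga

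All 5 miR-200 genes lay under the other-lineage level in both arrays. In the AAUACUG class, MIR200B read 6.34 and 6.95, MIR200C 4.78 and 4.44, and MIR429 4.29 and 4.18. In the AACACUG class, MIR200A read 5.38 and 4.86 and MIR141 6.2 and 6.0. The genes of the GCUACAU class, which share a seed and a cluster, were above the level. MIR222 read 8.78 and 8.30, and MIR221 read 11.10 and 9.25, over 1 lower in array 2. MIR21, an abundant miRNA in many tumors, read 9.27 and 8.80. The remaining members were low, among them MIR205, a basal epithelial miRNA, with 5.20 and 5.68, MIR203A, an epidermal miRNA, with 3.22 and 3.23, and MIR10B, a miRNA linked to metastasis, with 2.87 and 3.22. Altogether 3 of 14 miRNA genes of this list, which was drawn up after values had been seen, passed the level in both arrays, where 11.9% of 1072 miRNA genes did. A probe set on a miRNA gene reads the precursor and the mature strand together, so that the mature miRNA was not measured by itself.

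Epithelial genes were split by the level much as protein-coding genes at large were. Of 48 named members 23 were above the level in both arrays, 24 in neither and 1, the tight junction gene MARVELD2, in array 1 alone. The share above in both was 47.9%, near the 51.7% of protein-coding genes. Top-ranked were 18.8%, against 28.2%. The scaffold and desmosome genes were the brightest. TJP1, the ZO-1 scaffold of tight junctions, read 11.35 and 10.87. PKP2, a desmosomal plakophilin, read 10.74 and 10.62, DSP, the desmoplakin that links desmosomes to keratins, 10.47 and 10.73, and DSG2, a widely used desmosomal cadherin, 10.29 and 10.09. Occludin, OCLN, read 9.84 and 9.34, and LSR, of tricellular junctions, 9.54 and 9.94.

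At the bottom of the list were genes of differentiated epithelium. CLDN8, a claudin of kidney tubules and other epithelia, read 3.82 and 3.97. ESRP1, the splicing factor that sets epithelial isoforms of CD44 and FGFR2, read 4.36 and 4.29, at the 6.2 percentile, while its relative ESRP2 read 8.07 and 7.88. DSG3, a desmosomal cadherin of stratified epithelium, read 5.12 and 4.83. GRHL2, a factor that keeps epithelial genes active, read 5.88 and 5.83, and both OVOL1, with 6.22 and 6.29, and OVOL2, with 6.11 and 6.23, which counter EMT, were under the level. EPCAM, the epithelial adhesion molecule, was in between at 7.91 and 8.58.

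Claudins, the sealing proteins of tight junctions, were all named, 24 of 24, and this family was listed after values had been seen. None was top-ranked, 5 were above the level in both, 2 in 1 array and 17 in neither. The share above in both was 20.8%, against 51.7% of protein-coding genes. CLDN7 read 8.78 and 8.53, CLDN1 read 8.65 and 8.08, and CLDN3 read 7.66 and 8.11. CLDN4 read 6.55 and 7.14, beneath the level in both arrays. So of the 3 claudins whose loss gave the claudin-low class its name, CLDN3 and CLDN7 lay somewhat above the level and CLDN4 below it. Vector array 1 was lower than array 2 for CLDN3 and CLDN4 and higher for CLDN7.

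SNAI and ZEB factors bind E-boxes with the letters CACCTG or CAGGTG, which are the same site read on either strand. The RefSeq table of promoters was searched in the 250 bases before each start. Of 13726 starts of protein-coding genes 16.7% held such an E-box. Of the 43 starts listed for 32 epithelial members, 44.2% did, and of 24 starts of 13 mesenchymal members 16.7% did. The share was 46.2% of 26 starts for epithelial members above the other-lineage level in both arrays and 43.8% of 16 starts for those above it in neither. Counted by gene, at least 1 start held the motif in 64.7% of 17 epithelial members above the level in both arrays and in 50% of 14 above it in neither, against 21.3% of 9707 coding genes. The motif was not particular to epithelial genes, of which 56.3% of 32 held it. By gene the share was 53.8% of 13 basal and myoepithelial genes and 33.3% of 24 luminal genes. It was 23.1% of 13 mesenchymal genes and 8.3% of 12 EMT transcription factors. No list was tested for the motif. Starts of the same gene are not independent, and a match shows only the letters, not a bound site. CLDN7 had the 4 matches shown here in capitals at one of its listed starts, at chr17:7262479-7262728 on the minus strand of GRCh38.p14, and 0 at its other start, chr17:7263214-7263463, which is not shown, and VIM, at chr10:17227991-17228240 on the plus strand, had none.
CLDN7: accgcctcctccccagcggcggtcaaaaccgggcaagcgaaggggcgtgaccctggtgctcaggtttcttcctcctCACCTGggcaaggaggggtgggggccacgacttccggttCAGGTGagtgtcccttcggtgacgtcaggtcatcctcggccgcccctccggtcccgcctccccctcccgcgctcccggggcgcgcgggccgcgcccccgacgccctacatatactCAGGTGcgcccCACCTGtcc
VIM: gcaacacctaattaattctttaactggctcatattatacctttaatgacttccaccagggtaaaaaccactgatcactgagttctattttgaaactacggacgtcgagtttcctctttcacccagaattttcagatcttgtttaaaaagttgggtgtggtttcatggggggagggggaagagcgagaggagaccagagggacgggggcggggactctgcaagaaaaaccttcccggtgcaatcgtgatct

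Hormone receptor genes were low. ESR1, the estrogen receptor alpha, read 6.09 and 6.17, at the 30.0 percentile, and PGR, the progesterone receptor, read 4.85 and 4.86, at the 10.3 percentile. ESR2 read 6.62 and 6.39. ERBB2 lacked a named probe set and was not used here, so of the 3 genes that define the triple-negative class only ESR1 and PGR could be checked. FOXA1, the factor that opens chromatin for ESR1, read 4.99 and 5.22. The estrogen receptor target GREB1 read 6.07 and 6.27, and TFF1, another target, 6.77 and 7.52, which passed the level in array 2 only.

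Of 11 named nuclear receptors 4, or 36.4%, were above the level in both arrays, against 51.7% of protein-coding genes. Of these, 3 were the fatty acid receptors of the PPAR family. PPARD read 10.33 and 10.35, PPARG 9.24 and 8.30, and PPARA 8.06 and 7.95. The fourth was ESRRA, an orphan receptor that controls mitochondrial genes, with 7.33 and 7.74. The orphan receptor genes RORA, with 4.99 and 5.41, and RORB, with 6.06 and 5.40, as well as ESRRG, with 5.63 and 5.34, were low.

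Other luminal genes were mixed. Of 34 named members 11, or 32.4%, were above the level in both arrays, against 51.7% of protein-coding genes. KRT18, a keratin of simple epithelia, read 11.24 and 11.65, although its probe sets were 3.40 apart, and KRT19 read 9.38 and 10.33. XBP1, a secretory and stress factor, read 9.51 and 9.50, and SPDEF, an ETS factor of secretory cells, 9.05 and 9.21. GATA3, the luminal master regulator, read 7.78 and 8.24. At the other end AGR3 read 3.10 and 2.85, ANKRD30A, the breast antigen NY-BR-1, 4.53 and 3.95, and PIP, a secreted protein of apocrine cells, 4.43 and 4.52.

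Basal markers went partly against the basal name. Of 20 named members 7, or 35%, were above the level in both arrays, against 51.7% of protein-coding genes. EGFR, the epidermal growth factor receptor, read 11.63 and 11.08. CNN2, an actin-binding calponin, read 11.54 and 12.22, with probe sets 4.28 apart, DST, the hemidesmosome linker dystonin, 11.28 and 11.36, and SFN, the 14-3-3 sigma protein, 10.88 and 11.09. The defining keratins were low, with KRT5 at 5.09 and 5.18 and KRT14 at 5.85 and 5.54. MME, the CD10 antigen of myoepithelium, read 5.12 and 4.97, and ROPN1, a sperm protein found in basal-like tumors, 3.73 and 3.98. KRT17 and TP63 lacked a named probe set and were not used here. By their signal the cells thus paired high mesenchymal genes with the simple-epithelial keratins KRT18, read from its brightest probe set, and KRT19. KRT8, the partner of KRT18, read only 7.28 and 7.91, close to the level in array 1. The defining basal keratins KRT5 and KRT14 lay low.

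Keratins pair as an acidic type I and a basic type II chain, and each epithelium has its own pair. Of 47 named keratin genes only 5 were above the level in both arrays, a share of 10.6%, against 51.7% of protein-coding genes. The median rank of the 47 was at the 22.0 percentile. KRT18, KRT19 and KRT80, a keratin found near desmosomes, were top-ranked, and KRT80 read 9.96 and 9.14. KRT7, a type II keratin of ducts, read 8.53 and 8.30, and KRT8, the partner of KRT18, 7.28 and 7.91. KRT16, a keratin of wounded skin, passed the level only in array 1 with 7.49 and 7.13. The 41 others lay under it in both arrays. The lowest were KRT12, of the cornea, with 3.86 and 3.17, KRT26, of the hair root sheath, with 3.92 and 3.91, and KRT73 with 3.93 and 3.96. KRT18 has many processed copies in the genome, so cross-hybridisation among near-identical copies cannot be told apart here.

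**Figure D2:**
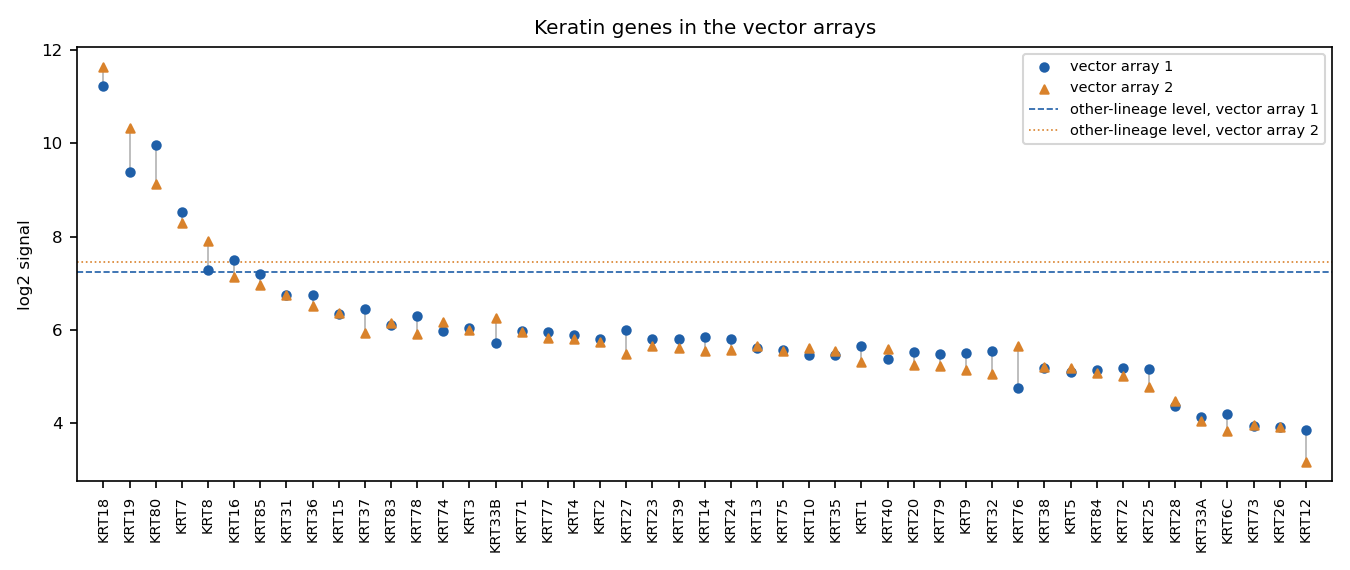
Log2 signal of the 47 named keratin genes in vector array 1 (circles) and vector array 2 (triangles), ordered by mean, with the other-lineage levels of 7.25 and 7.46 as lines. KRT18, KRT19, KRT80, KRT7 and KRT8 lie above the level of each array and KRT5 and KRT14 well below.

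Among other intermediate filament genes, 5 of 8, or 62.5%, were above the level in both arrays, against 51.7% of protein-coding genes. VIM was the brightest. The nuclear lamins followed, with LMNB2 at 10.11 and 9.69, LMNA at 8.99 and 8.98, and LMNB1 at 9.23 and 10.35, which is 1.12 higher in array 2. NES, the nestin of progenitor cells, read 7.50 and 7.51. DES, the desmin of muscle, which is also among the markers that set the level, read 7.10 and 7.76, GFAP, of astrocytes, 6.59 and 7.15, and PRPH, of peripheral neurons, 6.74 and 6.68.

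Receptor tyrosine kinases carry growth and guidance signals into the cell. Of 48 named genes 15, or 31.3%, were above the level in both arrays, 5 in 1 array and 28 in neither, with a median rank at the 45.0 percentile. That share lay under the 51.7% of protein-coding genes. AXL led, followed by MET, the receptor for hepatocyte growth factor, with 11.73 and 11.29, and EGFR. ROR1, a WNT5A receptor, read 10.66 and 10.40, and EPHA2, an ephrin receptor, 10.03 and 9.91. MERTK, the relative of AXL, read 9.24 and 9.38, and TYRO3, the remaining member of that family, 7.43 and 7.29.

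ERBB3, at 6.74 and 6.47, and ERBB4, at 6.05 and 5.47, of the same family as EGFR, lay under the level in both arrays, and ERBB2 had no named probe set. EPHA3 was the lowest kinase receptor at 5.02 and 4.53. FLT1, a VEGF receptor of endothelium, read 5.42 and 5.24, and EPHA6, an ephrin receptor, 5.24 and 5.42. KIT, a marker of luminal progenitors, read 5.63 in both arrays. No kinase receptor gene differed by over 1 between the arrays.

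**Figure D3:**
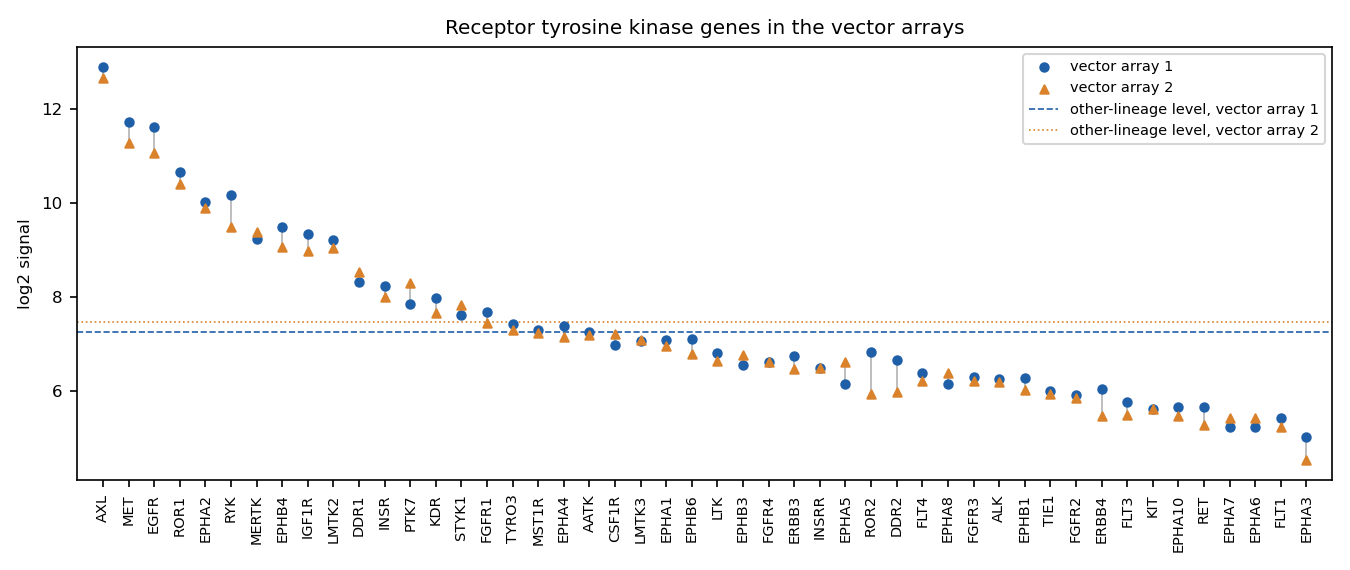
Log2 signal of the 48 named receptor tyrosine kinase genes in vector array 1 (circles) and vector array 2 (triangles), ordered by mean, with the other-lineage levels of 7.25 and 7.46 as lines. AXL, MET and EGFR are the 3 brightest, and 28 genes lie below the level of each array.

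Matrix genes were sparse in the annotation. Of 44 collagens only COL26A1 was named, with 7.26 and 7.30, and no integrin was. Of the basement membrane genes, the proteoglycans AGRN, with 8.45 and 8.64, and HSPG2, the perlecan, with 8.30 and 8.08, were above the level, while the nidogens NID1, with 5.87 and 6.51, and NID2, with 5.32 and 5.40, were under it.

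Matricellular proteins and crosslinkers were better covered, with 14 of 35 named genes, or 40%, above the level in both arrays. Top-ranked were 20%. Of protein-coding genes 51.7% and 28.2% were, so the list as a whole did not stand above the background. THBS1, thrombospondin 1, an activator of TGF-beta, read 13.34 and 13.05. CCN2, a target of YAP1 and TGF-beta, read 12.38 and 12.39, with probe sets 4.48 apart, and EFEMP1, the fibulin 3 glycoprotein, 11.45 and 10.95. HAS2, which makes hyaluronan, the ligand of CD44, read 10.10 and 9.68. The genes at the bottom were matrix genes of fibroblasts. DCN, the proteoglycan decorin, read 3.73 and 3.65, VCAN, versican, 4.70 and 4.69 with probe sets 1.52 apart, and MGP, the matrix Gla protein, 5.09 and 4.99. THBS2, with 6.43 and 6.31, and THBS4, with 5.51 and 4.93, were low where THBS1 was high.

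Proteases and their inhibitors ranged widely. Of 32 named genes 14, or 43.8%, passed the level in both arrays and 9, or 28.1%, were top-ranked, against 51.7% and 28.2% of protein-coding genes, so the list as a whole did not stand above the background. CTSD, the lysosomal protease cathepsin D, read 13.03 and 13.08. The inhibitors TIMP1, with 11.65 and 11.61, TIMP2, with 11.85 and 11.43, and TIMP3, with 12.00 and 11.95 from its brightest probe set, which lay 5.66 above its dimmest, were high, and TIMP4 read 7.89 and 7.13. The sheddases ADAM9, with 12.01 and 11.65, ADAM10, with 11.91 and 11.14, and ADAM17, with 10.22 and 10.07, were high as well.

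MMP14, the membrane-bound activator of other matrix metalloproteases, read 9.73 and 10.24. MMP1, the interstitial collagenase, read 10.58 in array 1 and 9.09 in array 2, which is 1.49 lower in array 2. MMP10, with 3.99 and 4.20, MMP13, with 4.65 and 4.22, MMP27, with 4.79 and 4.16, and MMP12, with 4.78 and 4.38, were low. MMP8, the collagenase of neutrophils, read 8.65 and 7.70, above the level in both arrays.

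Among cytoskeletal lists with named genes, the actin cytoskeleton was the most uniformly high. Of 64 listed genes only 26 were named. Of these 21, or 80.8%, were above the level in both arrays, against 51.7% of protein-coding genes. The median rank of the 26 was at the 80.0 percentile. TMSB10, a thymosin that binds actin monomers, read 13.28 and 13.55. MSN was next, and PFN1, the profilin that feeds filaments, read 12.86 and 12.85. EZR, the ezrin of epithelial microvilli, read 11.53 and 12.05. VCL, the focal adhesion protein vinculin, read 11.59 and 11.62, and PLS3, the plastin of solid tissues, 11.57 and 11.59. PLS1, the plastin of gut microvilli, read 9.10 and 9.27, and LCP1, that of blood cells, 7.38 and 6.93. VIL1, the villin of gut, read 6.44 and 6.53, and TAGLN3, of neurons, 6.33 and 6.11. ACTB and the tubulins lacked a named probe set and were not used here.

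Annexins, which tie calcium to membranes and actin, were listed after values had been seen and were named in full. Of 13 genes 10, or 76.9%, were top-ranked, against 28.2% of protein-coding genes. ANXA5 read 12.73 and 12.85, ANXA3 read 11.52 and 11.71, and ANXA6 read 11.54 and 11.41. ANXA9, ANXA10 and ANXA13, whose use is restricted to few tissues, were low, with ANXA13, of gut, at 4.87 and 4.70. ANXA8 and ANXA8L1 are near-identical copies and were not read apart.

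Central metabolism was named only in part. Of 42 listed glycolysis genes 15 were named, and 10 of these, or 66.7%, were above the level in both arrays, against 51.7% of protein-coding genes. GPI, the glucose phosphate isomerase, read 11.79 and 12.01, PGK1, the phosphoglycerate kinase of body cells, 9.74 and 9.64, and HK2, the hexokinase common in tumors, 9.34 and 9.66. The lactate dehydrogenase genes LDHA, with 9.16 and 9.41, and LDHB, with 9.55 and 9.50, were both high. PKM and SLC2A1 lacked a named probe set and were not used here.

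Of 33 listed genes of the citrate cycle and pyruvate entry 13 were named. Of these 12, or 92.3%, were above the level in both arrays, against 51.7% of protein-coding genes. The median rank of the 13 was at the 89.8 percentile. ACLY, which turns citrate into acetyl-CoA for lipid synthesis, read 12.43 and 12.35. IDH3G, a subunit of isocitrate dehydrogenase, read 11.44 and 11.55, OGDH, of the oxoglutarate dehydrogenase complex, 10.99 and 11, and DLAT, of the pyruvate dehydrogenase complex, 10.62 and 10.76. The pentose phosphate pathway had 5 of 7 named genes, or 71.4%, above the level. They were led by TKT, transketolase, with 10.44 and 10.57, and PGD, which makes NADPH, with 10.10 and 9.99. Among 4 named genes of amino acid use, GLUD1, glutamate dehydrogenase, was the brightest at 8.97 and 8.83, and GPT, a transaminase of liver, the dimmest at 6.74 and 6.58. Among 5 iron genes, NCOA4, the receptor for ferritin breakdown, read 11.36 and 11.16, and TF, the transferrin of liver, 5.89 and 5.72.

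Many of these enzymes have a form used in most cells and a form kept for testis, muscle, blood cells or other tissues. In 13 such enzymes or oxidase subunits, gathered after values had been seen, all 15 broadly used forms were above the level in both arrays and none of the 13 tissue-restricted forms was in either, where 51.7% of protein-coding genes were above it in both. The broad forms ranged from 7.44 to 13.42 in array 1 and from 7.90 to 13.37 in array 2. The restricted forms ranged from 4.32 to 7.0 in array 1 and from 3.91 to 7.01 in array 2. Because the forms were chosen with values known and are read by different probe sets, this gap is a description only and gives no order of amount. Not every broadly used subunit was above the level, and COX6C, for which no restricted form was listed, read 6.82 and 7.04. LDHC, of testis, read 4.48 and 4.69, PGK2, of testis, 4.47 and 4.54, and PDHA2, of testis, 5.36 and 6.01. HK3, of blood cells, read 5.55 and 5.64, and PCK1, of liver and kidney, 5.60 and 5.38. In the respiratory chain COX6A1 read 13.42 and 13.23 from its brightest probe set, 8.05 above its dimmest, and COX8A 12.38 and 13.37, while COX6A2, of muscle, read 5.94 and 6.39 and COX8C, of testis, 4.32 and 3.91.

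**Figure D4:**
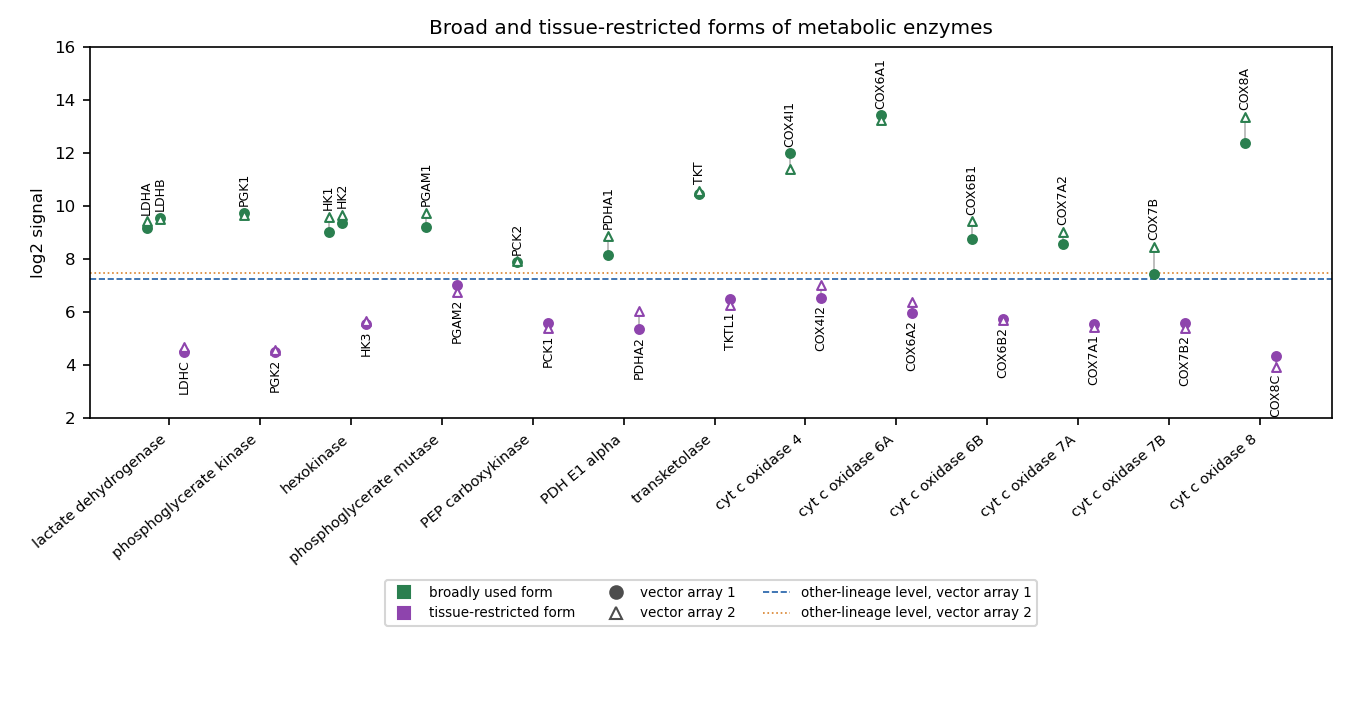
Log2 signal of broadly used (green, left) and tissue-restricted (purple, right) forms of 13 enzymes or subunits in vector array 1 (filled circles) and vector array 2 (open triangles), with the other-lineage levels of 7.25 and 7.46 as lines. In each array all 15 broad forms lie above that array's level and all 13 restricted forms below it, in a set of forms chosen after values had been seen.

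Secreted signals were common. Of 27 named cytokines and ligands 19, or 70.4%, were above the level in both arrays and 14, or 51.9%, were top-ranked. The shares of protein-coding genes were 51.7% and 28.2%. DKK1, a secreted WNT antagonist, read 12.99 and 12.70, BMP4, a growth factor of the TGF-beta family, 12.33 and 12.32, FST, the activin trap follistatin, 11.07 and 10.87, and EDN1, the vasoconstrictor endothelin 1, 10.75 and 10.97. The EGFR ligands EREG, with 10.47 and 9.83, and HBEGF, with 10.18 and 9.99, were top-ranked like their receptor, while BTC, betacellulin, another EGFR ligand, read 5.85 and 5.47, under the level in both arrays. The chemokines CCL2, with 4.45 and 4.20, CCL20, with 4.78 and 4.92, and the growth factor FGF2, with 5.25 and 5.41, were low. Other chemokines were mixed. CXCL8, with 7.59 and 7.62, and CXCL2, with 7.66 and 7.78, were above the level in both arrays, whereas CCL5 and CXCL3 were under it.

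Gene sets tied to metastasis in this line were read as well. Of 8 named bone metastasis genes 7, or 87.5%, were above the level in both arrays, against 51.7% of protein-coding genes. Their median rank was at the 90.4 percentile, and SPP1, osteopontin, was the exception at 5.16 and 4.96. DUSP1, a MAP kinase phosphatase, read 10.11 and 10.66, CXCR4, the CXCL12 receptor, 9.85 and 10.39, and IL11, a cytokine that stimulates osteoclasts, 8.74 and 8.53. Of 17 listed lung metastasis genes only 8 were named. Of these 4, or 50%, were above the level in both arrays and 2, or 25%, were top-ranked. Those shares lay near the 51.7% and 28.2% of protein-coding genes, so the list as a whole did not stand above the background. MMP1 is in both the bone and the lung list. EREG and MMP1 were top-ranked, LTBP1, a TGF-beta binding protein, read 8.22 and 8.20, and TNC, tenascin C, 8.24 and 8.04. VCAM1, a vascular adhesion molecule, read 5.50 and 5.54, PTGS2, the inducible cyclooxygenase, 6.11 and 5.61, and KYNU, kynureninase, 6.38 and 6.89.

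Lists of markers of other cell types had median ranks under the 58.5 percentile of protein-coding genes. The medians ran from the 17.85 percentile for liver and gut markers to the 40.3 for muscle and the 45.1 for neuronal markers. Muscle and neuronal markers thus did not rank lower than luminal genes, whose median was at the 32.2 percentile. Hematopoietic, neuronal, muscle, liver and gut markers set the level, so that few could lie above it by construction, and of the 52 only CD8A, of T cells, did in both arrays, with 7.73 and 7.60. Of lists that did not set it, no fibroblast marker out of 10, no melanocyte marker out of 9 and 1 adipocyte marker out of 8 was above it in both arrays. Of protein-coding genes 51.7% were. The adipocyte gene was ADIPOR2, a widely used adiponectin receptor, with 9.28 and 8.87, while CD36 read 3.87 and 3.88. Among 15 endothelial markers ESAM, a junction molecule, read 10.90 and 10.40 and KDR, a VEGF receptor, 7.98 and 7.67. The defining endothelial genes PECAM1, with 5.38 and 5.28, VWF, with 5.81 and 5.42, and EMCN, with 4.19 and 4.39, were under the level.

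The 15 protein-coding genes with the highest mean signal read between 12.85 and 13.55. They were the ribosomal protein genes RPS28, RPL41 and RPL10, the actin and membrane genes TMSB10, EMP3, MSN and RHOA, the secreted or lysosomal THBS1 and CTSD, the endoplasmic reticulum proteins CALR and SELENOF, the desaturase SCD, the oxidase subunit COX6A1, the nuclear exporter CSE1L and OAZ1, which limits polyamines. Probe sets of COX6A1, RPL41 and SCD differed by over 5, so those genes stand high on their brightest probe set only.

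Translation genes held most of the list members whose vector arrays lay over 1 apart. Of 50 named ribosomal and elongation genes 46, or 92%, were above the level in both arrays, against 51.7% of protein-coding genes. In array 2, 36 of the 50 were higher than in array 1. The difference exceeded 1 in 9 of them, all higher in array 2. RPS21, of the small subunit, read 8.94 and 10.87, RPL11 10.50 and 11.92, and EEF1G, an elongation factor subunit, 11.47 and 12.51 with probe sets 1.84 apart. The others were RPS27, RPL27, RPL24, RPL26, RPL39 and RPS15A. Beside MMP1 and LMNB1 they were the 11 whose arrays lay over 1 apart among the 542 named members of the first 34 lists, a share of 2.03%. Lists drawn up after values had been seen are not in this count, and they held further such genes, among them MIR221, JUN and JUND. RPL22 was the dimmest with 6.35 and 6.75, and ribosomal protein genes have many processed copies that probes can share.

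Genes with high signal more often had CpG-rich promoters. Of the 11916 protein-coding genes 9707 had a start in the RefSeq promoter table, and the CpG dinucleotides in the 250 bases before it were counted, as a mean over the starts of a gene. The median count was 3.5 in genes ranked under the 10th percentile and 22 in genes ranked at the 90th or higher, and the share of genes with at least 15 was 21.6% and 81.1% in these sets. Across genes, which are not independent, Spearman's rho between mean rank and CpG count was 0.404. Nearly all of the change lay below the 70 percentile, and the median count was 21 in each of the 3 bins between the 60 and the 90 percentile. The part that base composition of the probes has in this was not tested. Not every list followed it. The 13 mesenchymal genes with a start, of the lineage list with the highest median rank, had a median of 11 CpG, against 18 over all 9707 genes. VIM held 8. A gene with several starts, such as EGFR, entered with their mean. EGFR, at chr7:55018767-55019016 on the plus strand of GRCh38.p14, held 25 CpG, and its other listed start, chr7:55109589-55109838, which is not shown, held 1. PIP, at chr7:143131827-143132076 on the plus strand, held 2. CpG are in capitals.
EGFR: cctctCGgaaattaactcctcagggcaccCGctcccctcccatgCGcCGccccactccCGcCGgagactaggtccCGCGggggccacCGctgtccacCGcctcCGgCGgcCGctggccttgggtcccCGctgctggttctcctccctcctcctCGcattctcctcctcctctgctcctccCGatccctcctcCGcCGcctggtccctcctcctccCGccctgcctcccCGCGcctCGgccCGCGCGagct
PIP: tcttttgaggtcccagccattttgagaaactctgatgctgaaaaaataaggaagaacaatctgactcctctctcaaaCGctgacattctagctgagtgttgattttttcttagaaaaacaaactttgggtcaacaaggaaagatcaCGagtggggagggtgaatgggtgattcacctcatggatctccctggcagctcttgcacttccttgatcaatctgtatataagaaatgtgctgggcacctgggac

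**Figure D5:**
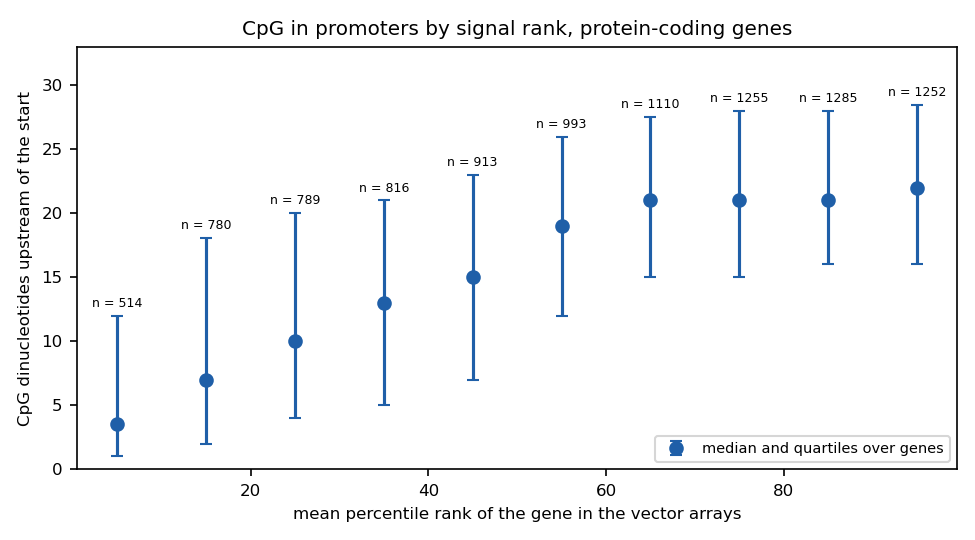
CpG dinucleotides in the 250 bases before the start of protein-coding genes (median, with bars from the lower to the upper quartile over genes) in 10 bins of the mean percentile rank in the vector arrays. The median is 3.5 in the lowest bin and 22 in the highest.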

How the data were processed

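RNA from MDA-MB-231-Luc-D3H1 cells was hybridised to Affymetrix Human Gene 2.0 ST arrays, 2 arrays for each of shRNA1, shRNA2 and vector, of which only the 2 vector arrays were used. The authors made the deposited log2 values with the Affymetrix Expression Console and RMA (background correction, quantile normalization across all 6 arrays, summary per probe set). No version was given in the sources used here. Quantile normalization fixes the spread of each array, so differences between the vector arrays are relative.

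Of 53617 probe sets 16098 had exactly 1 gene symbol in the annotation, and 37519 were left unnamed, also those of integrins, tubulins and the proteasome core. The brightest probe set stood for a gene. Percentile ranks, counts and medians were computed with pandas 2.3.3 and NumPy 2.4.6 in Python 3.11.15. The level for low signal was planned on olfactory receptor genes, but only 1 had a named probe set, and the 95th percentile of 52 markers of other lineages took its place. The level and rank calls were tested on simulated data with genes planted far above and far below the level. Calls on genes near the level were not tested in this way. With 1 group of 2 arrays no test was made, and their number limits the precision. Named genes were drawn from a fixed core set, the 4 highest and 3 lowest of each list, the 15 brightest protein-coding genes and members whose arrays differed by over 1, with others chosen after their values were seen. The members and the 34 lists were chosen with earlier results of these data known, and 10 further lists and the isoform sets after these values were seen. Alternatives were other levels, rank bases and probe set rules.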

Additional observations from a re-analysis of the deposited data

How the results depend on the processing

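Ranks were most open to the set of probe sets they were taken in. Among all probe sets, named or not, the median rank was at the 93.39 percentile for mesenchymal genes, 80.15 for EMT factors, 70.5 for epithelial, 65.55 for basal and 51.14 for luminal genes, and 19 epithelial and 7 luminal genes were top-ranked. Among protein-coding genes alone the medians were 88.42, 60.63, 45.74, 39.64 and 24.32 in the same order. The order of the 5 medians was the same under both. With the mean of a gene's probe sets in place of the brightest, the medians of mesenchymal genes and EMT factors were 88.69 and 66.28. At the 90th percentile, 6 EMT factors, 4 epithelial genes and 1 luminal gene were top-ranked, and at the 50th percentile 24 epithelial, 11 luminal and 9 basal genes. With the highest other-lineage marker as the level, chosen after seeing the data, 7 luminal genes lay above it. With either vector array alone, the median was 54.0 for epithelial genes, 32.51 to 33.28 for luminal genes and 47.53 to 47.93 for basal genes. The SD of the difference between the vector arrays was 0.397 as deposited. Levels on olfactory receptor genes were not run, since 1 probe set gives no percentile. No paired analysis was possible because the results come from no test and only 1 group was read.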

Other observations

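The lists below were drawn up after values had been seen. CDKN2A, which makes the cell cycle inhibitor p16 and is known to be lost from this line, read 5.49 and 5.54 in vector arrays 1 and 2. In RefSeq's order of genes on chromosome 9, with 578 named, it lay in a run of 15 named genes that were under the other-lineage level in both arrays, 7 of them protein-coding. MTAP, the methionine salvage enzyme next to it, read 5.83 and 6.14, KLHL9, an adaptor of a ubiquitin ligase, 5.27 and 5.23, HACD4, a fatty acid elongation enzyme, 4.6 and 4.37, and DMRTA1, a DM-domain gene, 5.56 and 5.61. The noncoding genes CDKN2B-AS1, with 4.55 and 4.30, and MIR31HG, with 4.40 and 4.19, were low too, while FOCAD read 7.23 and 6.89. Next to the run, RPS6 read 8.77 and 9.48, DENND4C 8.86 and 8.68, CAAP1 8.88 and 8.65, PLAA 10.57 and 10.20 and PLIN2 8.14 and 7.67, while TUSC1, at 7.25 and 7.56, barely passed the levels of 7.25 and 7.46. Of 3282 such runs over the autosomes and X, 17 were as long or longer, and the longest held 47 genes. Copy number was not measured here, and its part in these signals was not tested. The kinases that p16 restrains were top-ranked, with CDK4 at 11.30 and 11.51 and CDK6 at 10.24 and 9.84. Of their D-type cyclins CCND1 read 10.95 and 11, CCND3 7.58 and 7.61, and CCND2 6.52 and 6.2, under the level in both arrays. RB1 read 11.75 and 10.84.

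Of 12 Frizzled and LRP genes, which make WNT receptors, 8, or 66.7%, were above the level in both arrays, and 5, or 41.7%, were top-ranked. The shares of protein-coding genes were 51.7% and 28.2%. FZD6 was the brightest at 11.43 and 11.14. Among 9 Notch genes NOTCH2 read 11.78 and 11.01 and JAG1, a Notch ligand, 10.41 and 10.21, while DLL3 read 5.55 and 5.27. Of 27 named HOX genes, which set position along the body, 7.4% were above the level in both arrays, against 51.7% of protein-coding genes. They were HOXB9, with 9.19 and 9.40, and HOXD4, with 7.62 and 8.0. HOXB5 and HOXB6 were at 5.21 and 5.00 and at 5.21 and 5.14. The AP-1 subunits JUN, with 9.09 and 10.21, and JUND, with 8.65 and 9.91, read over 1 higher in array 2, whereas FOS read 6.98 and 7.04.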
